A study of Mus musculus with 16 samples.

Results

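Raw read counts of 10 genes were followed through 16 RNA libraries of mouse brain endothelial cells (bECs). These were the chemokine genes Cxcl9, Cxcl10, Cxcl11, Cxcl1, Ccl2, Ccl7, Cx3cl1, Cxcl16 and Cxcl12, together with Ackr3, which encodes a receptor that removes CXCL12. They were taken by gene symbol as chemokine genes of brain endothelium, with no threshold on a measured value but with earlier results of these data known, and all 10 were found among the 37003 genes of the count table. The libraries formed 4 groups of 4, from CTRL and YT-iKO mice each taken after sham surgery or after MCAo. In all groups, both alleles of Yap and of Taz (the latter encoded by Wwtr1) were floxed, written Yap fl/fl and Taz fl/fl. YT-iKO mice also had 1 copy of the Pdgfb-iCreER-eGFP transgene, in which the Pdgfb promoter drives a Cre that tamoxifen activates, in endothelium. CTRL mice were littermates without this transgene, and both genotypes were given tamoxifen before surgery, so that the drug was shared by all 4 groups. Adult mice underwent a sham operation or middle cerebral artery occlusion (MCAo), in which a filament closed the artery for 30 minutes and was then withdrawn. Cells were collected 72 hours after surgery and sorted as CD31+, CD45- and DAPI-. Each library held cells pooled from several mice, both sexes were used, and the make-up of each pool by sex was not used here.

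Chemokines are small secreted proteins that bind to the vessel surface and steer leukocytes that carry the matching receptor. CXCL9, CXCL10 and CXCL11 are induced by interferons and act on CXCR3, a receptor of activated T cells and natural killer cells. CXCL1 attracts neutrophils through CXCR2, while CCL2 and CCL7 attract monocytes through CCR2. CX3CL1 and CXCL16 are made as membrane proteins that can be shed by ADAM proteases, and CXCL12 retains CXCR4-bearing cells and shapes vessels. YAP and TAZ are transcriptional co-activators that reach DNA through TEAD proteins. The comparisons below ask how the RNA of these genes differed after stroke, and whether it depended on endothelial Yap and Taz.

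On GRCm38, Cxcl9 (chr5:92321347-92328079), Cxcl10 (chr5:92346638-92348889) and Cxcl11 (chr5:92359544-92365485) lie side by side on the minus strand, and Cxcl1 (chr5:90891241-90893115) lies on the plus strand of the same chromosome. Ccl2 (chr11:82035571-82037453) and Ccl7 (chr11:82045712-82047525) are neighbours on the plus strand, with Cxcl16 at chr11:70453983-70459984 on the minus strand. Cx3cl1 (chr8:94772009-94782427), Cxcl12 (chr6:117168535-117181367) and Ackr3 (chr1:90203980-90216751) are on the plus strand.

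The libraries held 11418262 to 23074547 counts on genes. The targeted genes followed the labels. Yap1 was at 112 ± 0.511 CPM (counts scaled by edgeR to a common library size with TMM factors, SD, n = 4) after sham and 106 ± 26.8 after MCAo in CTRL, against 49.3 ± 9.70 after sham and 47.2 ± 11.6 after MCAo in YT-iKO. Wwtr1 was at 265 ± 9.66, 329 ± 96.8, 72.1 ± 20.9 and 89.1 ± 32.9 CPM in the same order, and for both genes every YT-iKO library was below every CTRL library. The 14 endothelial markers, among them Pecam1, Cdh5 and Cldn5, summed to 11700 to 26120 CPM per library. Among markers of other cells, those of pericytes were the highest, 8 genes summing to 501 to 1452 CPM, and 8 astrocyte genes summed to 68.6 to 125 CPM. Those of immune cells were low, with 10 microglia and macrophage genes at 20.6 to 39.3 CPM and 8 monocyte and neutrophil genes at 1.62 to 18.5 CPM, and with S100a8 and S100a9 each at 0 in 1 library. The libraries also differed in how many reads fell evenly over exons of genes that endothelium is not known to use. This even background was measured on 1265 olfactory, vomeronasal and taste receptor genes. Unlike the other CPM values, it was scaled to each library's total counts without TMM factors. On that scale it ran from 0.022 CPM per kilobase of exon in YT-iKO MCAo replicate 4 to 0.547 in YT-iKO MCAo replicate 2.

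Upstream sequences are given for 3 members because Cxcl10 is the gene whose change passed the test below, Cxcl9 is its neighbour in the same interferon-induced family, and Cxcl1 is the attractant with the highest counts of its group. They are the 250 bases before the annotated start (RefSeq, GRCm38.p6), read 5′ to 3′ on the gene's own strand. Capitals mark matches, on either strand, to 1 of 2 motifs. The first reads GAAA, any 2 bases and GAAA, and is a core of the element bound by interferon regulatory factors. The second reads GGG, any 3 bases and TTCC, and is bound by NF-kappaB.
Cxcl10 (chr5:92348890-92349139, minus strand): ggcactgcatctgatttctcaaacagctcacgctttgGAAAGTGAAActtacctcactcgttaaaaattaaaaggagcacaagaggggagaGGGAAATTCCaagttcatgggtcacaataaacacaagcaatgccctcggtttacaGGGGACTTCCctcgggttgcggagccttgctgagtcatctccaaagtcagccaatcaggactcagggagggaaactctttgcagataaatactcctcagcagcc
Cxcl9 (chr5:92328080-92328329, minus strand): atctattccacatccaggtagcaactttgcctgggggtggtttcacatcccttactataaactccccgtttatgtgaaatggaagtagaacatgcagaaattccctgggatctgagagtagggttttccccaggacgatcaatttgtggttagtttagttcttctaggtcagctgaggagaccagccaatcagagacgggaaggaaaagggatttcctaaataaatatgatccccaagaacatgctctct
Cxcl1 (chr5:90890995-90891244, plus strand): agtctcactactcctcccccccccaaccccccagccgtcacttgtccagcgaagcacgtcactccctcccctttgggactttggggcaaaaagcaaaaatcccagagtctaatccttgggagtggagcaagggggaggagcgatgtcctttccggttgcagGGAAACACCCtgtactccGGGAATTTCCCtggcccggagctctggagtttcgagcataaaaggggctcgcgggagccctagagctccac
The Cxcl10 sequence holds 1 match to the interferon motif, from 213 to 204 bases upstream, and 2 to the NF-kappaB motif, from 159 to 150 and from 104 to 95 bases upstream. The Cxcl1 sequence holds 3 matches to the NF-kappaB motif, of which 2 overlap on opposite strands between 71 and 61 bases upstream. Neither motif, in these exact letters, was found in the Cxcl9 sequence, and other forms of the motifs were not searched. Among 32851 promoters of 300 bases (250 before to 50 after the start), 3.44% held the interferon motif and 5.56% the NF-kappaB motif. The letters CATTCC, bound by TEAD proteins, were in 14.7% of these promoters and in none of the 6 members with an entry (Cxcl9, Cxcl10, Cxcl1, Cx3cl1, Cxcl12 and Ackr3). The motifs were chosen with results of these data known, and a match describes the letters only.

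The 10 genes fell into very unequal levels. Cxcl12 was by far the most abundant per length, at 282 ± 93.01 CPM per kilobase of exon (SD over all 16 libraries), and it made up 93.7% to 97.6% of the summed CPM of the 9 chemokine genes in each library. Cx3cl1 followed at 21.6 ± 6.96 and Ackr3 at 11.7 ± 4.87 CPM per kilobase. The other 7 genes lay at or below 2.12 ± 1.58 (Cxcl1), and neighbours in their order differed by less than their spread: Cxcl10 1.14 ± 1.23, Cxcl16 1.07 ± 0.272, Ccl7 0.736 ± 0.580, Ccl2 0.728 ± 0.404, Cxcl9 0.520 ± 0.230 and Cxcl11 0.472 ± 0.298.

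Several of these low genes were within a few times the count that the even background alone would give, a multiple that depends on the receptor genes used to measure it. Summed over the libraries, raw counts exceeded the background expected from exon length by 1330-fold for Cxcl12, 101-fold for Cx3cl1 and 54.4-fold for Ackr3, but by 10.2-fold for Cxcl1, 5.30-fold for Cxcl10, 5.0-fold for Cxcl16, 3.40-fold for Ccl2, 3.38-fold for Ccl7, 2.42-fold for Cxcl9 and 2.17-fold for Cxcl11. With the 211 vomeronasal and taste receptor genes alone, the background was lower, and the last 3 values were 7.82, 5.59 and 5.02. The receptor genes themselves spread widely, and 90 of the 1265 had as many counts per kilobase as Cxcl11 or more, 61 as many as Cxcl9, 12 as many as Ccl7, 11 as many as Ccl2 and 5 as many as Cxcl10. For correlation with the background, counts were likewise scaled to library totals, and r with TMM factors is not given here. So scaled, Cxcl9, Cxcl11 and Ccl7 also moved with the background of the library. Pearson's r over the 16 libraries on log2 scales was 0.849, 0.808 and 0.799, against 0.331 for Cxcl10 and −0.079 for Cxcl1. These points share their library and its depth, so that r is a description only. A value of Cxcl9, Cxcl11 or Ccl7 in a single library is therefore not read below as endothelial expression.

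**Figure D1:**
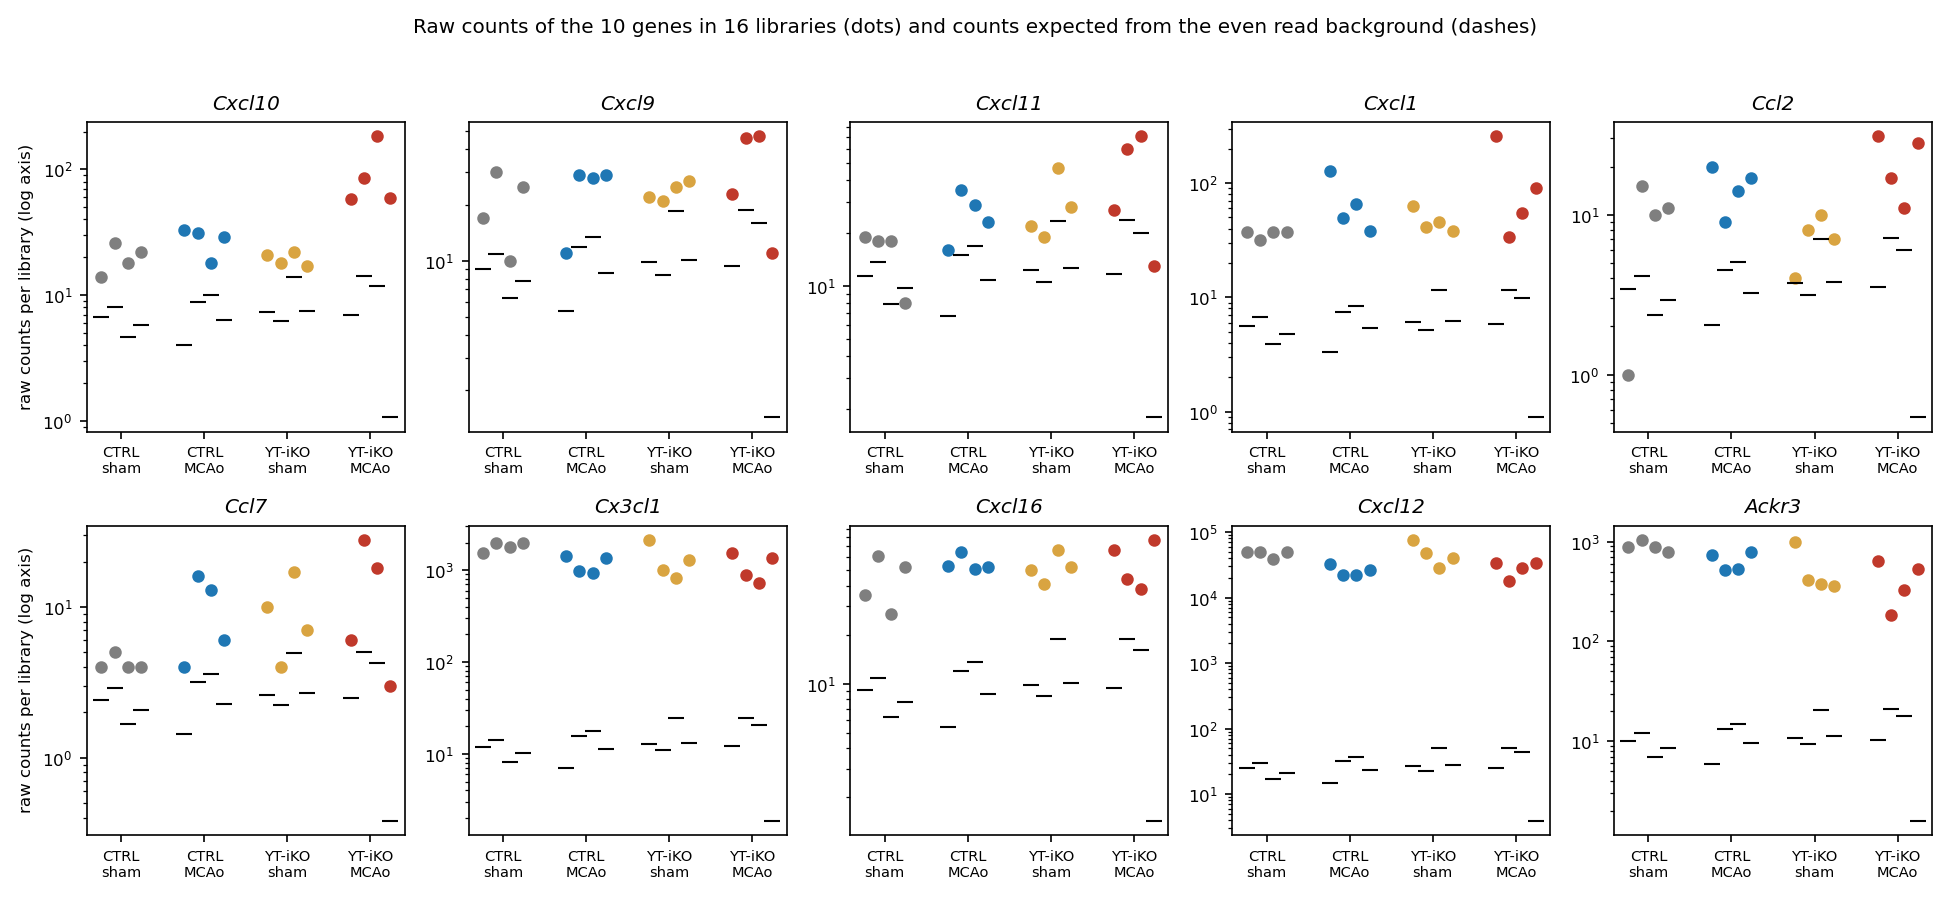
Raw counts of each of the 10 genes in each library (dots, log axis), by group, with the counts expected from the even read background of that library (dashes). Cxcl12, Cx3cl1 and Ackr3 lie far above the dashes in all 16 libraries, whereas Cxcl11 lies within 2 times the dash or below it in 6 of 16.

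**Figure D2:**
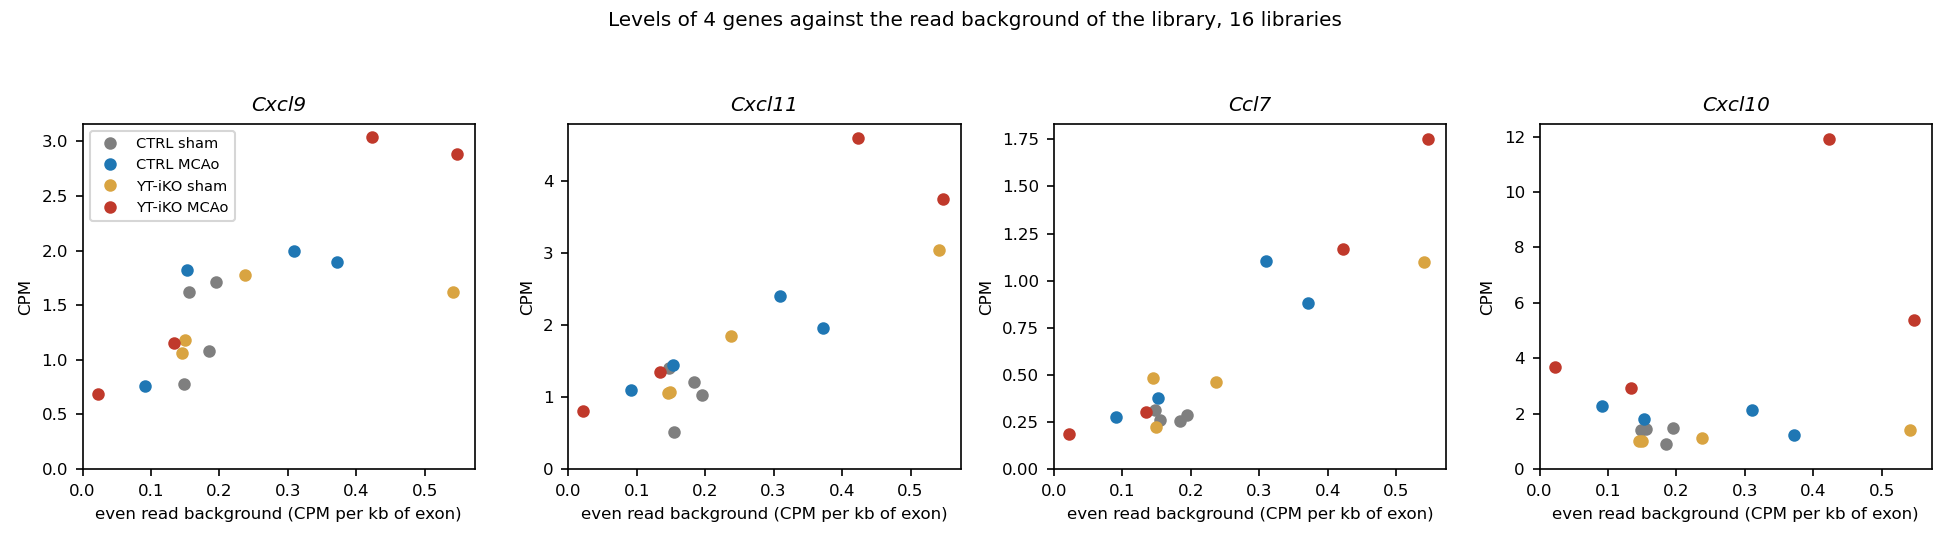
CPM of Cxcl9, Cxcl11, Ccl7 and Cxcl10 (vertical axis) against the even read background of the library in CPM per kilobase of exon (horizontal axis), 1 dot per library, coloured by group. The first 3 genes climb with the background, while the 4 YT-iKO MCAo libraries are the highest for Cxcl10 at any background. Their r of 0.849, 0.808 and 0.799 (Cxcl9, Cxcl11 and Ccl7) was computed on counts scaled to library totals without TMM factors.

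Each gene was tested in edgeR's quasi-likelihood model of all 16 libraries, with p-values adjusted over 31085 genes and a threshold of 0.1. For YT-iKO against CTRL after sham, none of the 10 genes passed, with 0.0965% of all genes passing, and 2 (Ackr3 and Cx3cl1) were under an unadjusted p of 0.05, as were 2.16% of all genes. For YT-iKO against CTRL after MCAo, none passed, with 0.0708% of all genes passing, and 2 (Cxcl10 and Ackr3) were under an unadjusted p of 0.05, as were 1.49% of all genes. For MCAo against sham, none passed in CTRL, with 0.216% of all genes passing, and Cxcl10 passed in YT-iKO, with 0.318% of all genes passing. In these comparisons 3 members (Cxcl12, Cx3cl1 and Cxcl1) and 4 members (Cxcl10, Cxcl1, Ccl2 and Cxcl12) were under an unadjusted p of 0.05, as were 3.50% and 3.01% of all genes. For the difference between the responses of the 2 genotypes, 0 of the genes tested passed in edgeR or limma-voom (31085 genes) or DESeq2 (37001 genes), and 1 member (Cxcl10) was under an unadjusted edgeR p of 0.05, as were 0.373% of all genes. DESeq2 called none of the 10 for genotype after sham (0.42% of the genes to which DESeq2 gave an adjusted p), Cxcl10 for genotype after MCAo (0.461%), Cxcl12 for MCAo in CTRL (1.11%) and Cxcl10 for MCAo in YT-iKO (1.25%), where it gave an adjusted p to 15479, 16914, 18348 and 19066 genes. Among the 31085 genes, limma-voom called 1 (0.46%), 2 (0.827%), 7 (24.2%) and 7 (18.1%) of them in the same order.

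Single values, as log2(CPM + 1), were also compared by permuting the libraries (exact permutation test, two-sided), for which the smallest p with 4 against 4 is 0.0286, reached only where the groups do not overlap in the gene's CPM. This held in 7 of 40 tests. It was Ackr3 for genotype after sham (3.85% of all genes did not overlap there), Cxcl10 and Ackr3 for genotype after MCAo (0.981%), Cxcl12 and Ackr3 for MCAo in CTRL (4.14%), and Cxcl10 and Ccl2 for MCAo in YT-iKO (1.28%).

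**Figure D3:**
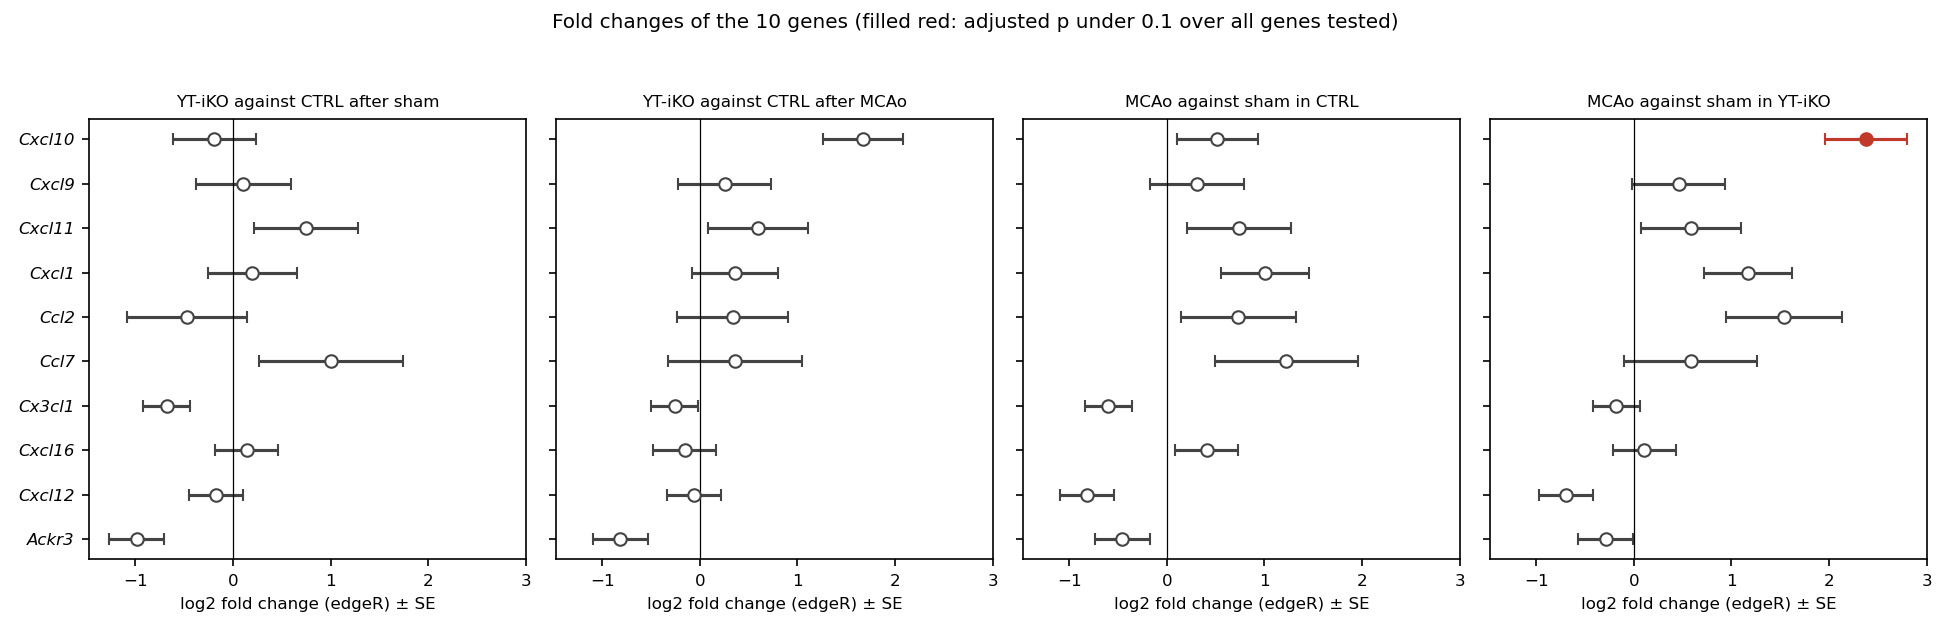
Log2 fold changes with their standard errors from edgeR for the 10 genes (rows) in 4 comparisons (panels), relative to the group named second. The filled red point, Cxcl10 for MCAo against sham in YT-iKO at 2.38, is the only one of the 40 with an adjusted p under 0.1.

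Cxcl10 RNA was highest in YT-iKO bECs after MCAo. Its raw counts were 14, 26, 18 and 22 after sham (replicates 1 to 4) and 33, 31, 18 and 29 after MCAo in CTRL, against 21, 18, 22 and 17 after sham and 58, 86, 184 and 59 after MCAo in YT-iKO. The 4 YT-iKO MCAo libraries were the 4 highest of the 16, and replicate 3 stood well above the other 3, whereas the remaining groups overlapped. The counts expected from the even background were 6.97, 14.1, 11.9 and 1.07 in the YT-iKO MCAo libraries, so that each held at least 6.11 times its background, against 1.58 to 2.88 times in YT-iKO sham, 2.07 to 3.85 in CTRL sham and 1.79 to 8.23 in CTRL MCAo.

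In YT-iKO, Cxcl10 rose after MCAo by 2.38 on the log2 scale (SE 0.42, 5.20-fold, edgeR adjusted p = 0.012), from 1.14 ± 0.195 to 5.97 ± 4.10 CPM (SD, n = 4 each), and all 4 libraries lay above the sham range. In CTRL the difference was 0.52 (SE 0.42, edgeR adjusted p = 1), with 3 of 4 MCAo libraries above the sham median. Between genotypes, Cxcl10 did not pass the test after sham (−0.19, SE 0.42). After MCAo it was 1.67 higher in YT-iKO (SE 0.41, 3.19-fold), which did not pass in edgeR (adjusted p = 0.378). The genotype difference after MCAo passed in DESeq2 (1.65, adjusted p = 0.0233) and in limma-voom (2.285, adjusted p = 0.000213). For MCAo against sham, limma-voom called Cxcl10 in YT-iKO (3.057, adjusted p = 0.000114) and not in CTRL (0.527, adjusted p = 0.333). There it called 18.1% of all genes in YT-iKO and 24.2% in CTRL. The response in YT-iKO exceeded that in CTRL by 1.86 (SE 0.59, edgeR adjusted p = 1), so that a dependence of the response on genotype was not shown across all genes. Both comparisons that single out YT-iKO MCAo use the same 4 libraries of that group.

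The edgeR call of this rise depended on the settings and on single libraries. Without YT-iKO MCAo replicate 3, the MCAo response in YT-iKO was 1.80 (edgeR adjusted p = 0.0473), and the genotype difference after MCAo was 1.09 (edgeR adjusted p = 1). Without YT-iKO sham replicate 2 the adjusted p in edgeR was 0.102 at a log2 fold change of 2.31, and with only the 2 groups in the model it was 0.318 at 2.37. Without YT-iKO MCAo replicate 4, the library with the least background, the genotype difference after MCAo passed (1.84, edgeR adjusted p = 0.0617). After subtraction of the even background, and with libraries scaled on genes of at least 10 CPM, the groups again did not overlap in both comparisons (exact permutation p = 0.0286). In bulk RNA, fewer cells of a type and less RNA per cell cannot be told apart. The microglia and macrophage markers summed to 25.7 to 33.0 CPM in YT-iKO MCAo and 20.6 to 39.3 CPM in YT-iKO sham, and those of monocytes and neutrophils to 1.62 to 17.3 and 6.35 to 18.5 CPM, overlapping between the groups. Pericyte markers summed to 501 to 1213 CPM in YT-iKO MCAo and 555 to 873 in YT-iKO sham. Their median log2 difference was 0.578 (all genes −0.02), with 8 of 8 above 0. Of the 8, 3 were under an unadjusted edgeR p of 0.05 (3.01% of all genes). None was called by edgeR (0.318% of all genes), DESeq2 (1.25% of genes with an adjusted p) or limma-voom (18.1% of all genes). Fibroblast markers summed to 31.9 to 46.4 and 22.9 to 45.1 CPM, with a median of 0.648. Of the 7, 3 were under an unadjusted edgeR p of 0.05 (3.01% of all genes). Of the same 7, 0 were called by edgeR (0.318%), 1 by DESeq2 (1.25%) and 4 by limma-voom (18.1%). The same medians after MCAo in CTRL were 0.524 and 0.747, and the part of these cells in the Cxcl10 result was not tested. Art3 shares 133 bases of exon with Cxcl10 on the opposite strand, and its counts were 238, 134, 147 and 179 in YT-iKO MCAo and 221, 183, 192 and 95 in YT-iKO sham, overlapping between the groups.

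The 3 genes of 21112 whose log2(CPM + 1) followed that of Cxcl10 most closely over the 16 libraries were Slfn4, a gene of the Schlafen family (r = 0.762), the long non-coding RNA gene Rian (0.739) and the predicted gene Gm3364 (0.727). The libraries share their depth and the high value of YT-iKO MCAo replicate 3, so that these r values are a description.

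The other CXCR3 ligands had the lowest counts over background of the 10 genes, with either class of receptor genes. Cxcl9 counts ranged from 10 to 30 after sham and 11 to 29 after MCAo in CTRL, and from 21 to 27 after sham and 11 to 47 after MCAo in YT-iKO, and Cxcl11 counts from 8 to 19, 16 to 35, 19 to 47 and 13 to 71 in the same order. All groups overlapped for both genes. The MCAo difference in YT-iKO was 0.46 (SE 0.48) for Cxcl9 and 0.59 (SE 0.51) for Cxcl11, each with an edgeR adjusted p of 1, and an interval of 2 SE to either side ran from −0.50 to 1.42 and from −0.44 to 1.61. limma-voom called both there, at 1.06 (adjusted p = 0.0682) and 1.54 (adjusted p = 0.029), as it did 18.1% of all genes. In CTRL the MCAo difference in edgeR was 0.31 (SE 0.48) for Cxcl9 and 0.74 (SE 0.53) for Cxcl11. There limma-voom called Cxcl11 higher and did not call Cxcl9, and it called 24.2% of all genes. Both genes were highest in YT-iKO MCAo replicates 2 and 3, which are also the libraries of that group with the most background. Exons of Cxcl11 share 1582 of 3794 bases with Gm2673 on the opposite strand, and how reads there were assigned is not known.

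**Figure D4:**
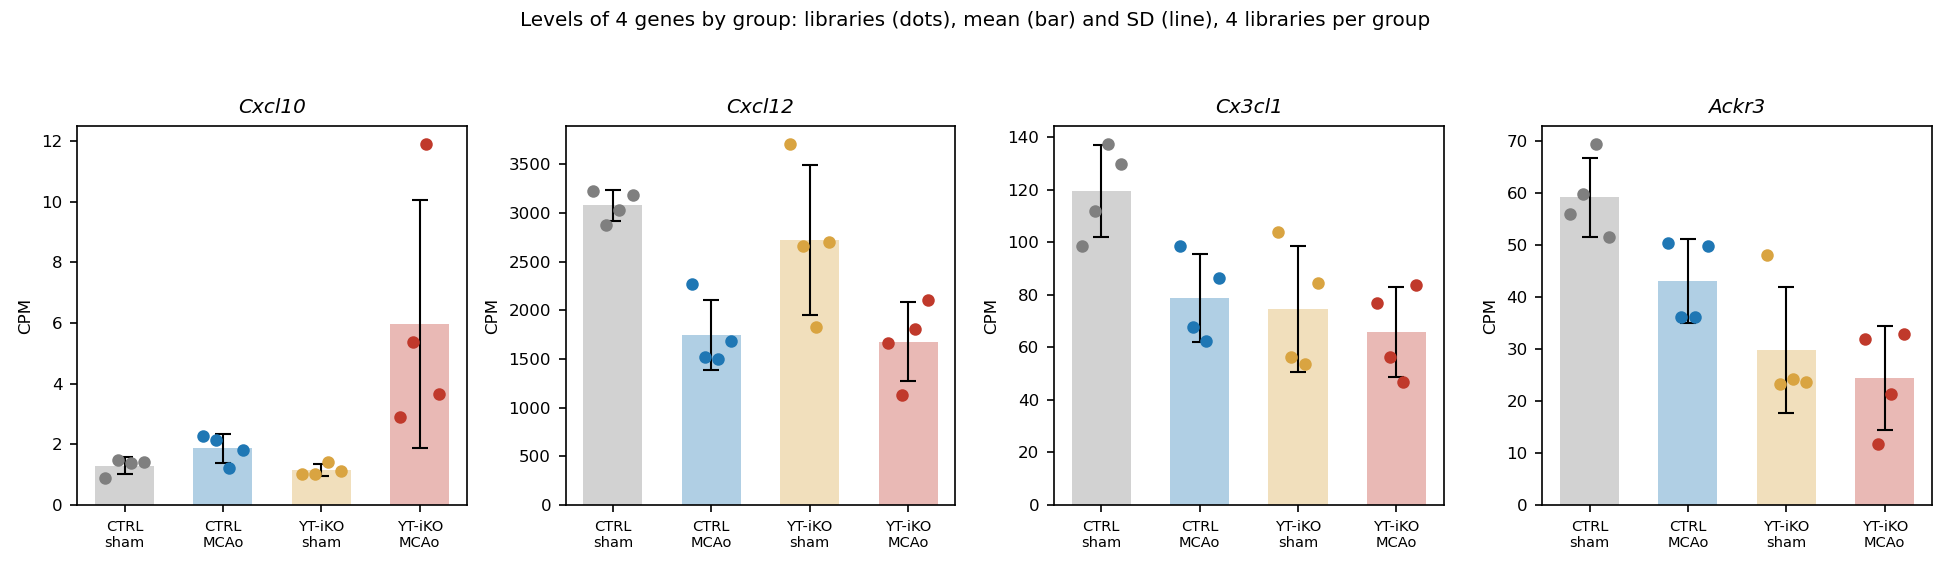
CPM of Cxcl10, Cxcl12, Cx3cl1 and Ackr3 by group, with each library as a dot, the mean as a bar and the SD as a line (n = 4 libraries per group). Cxcl10 is high in YT-iKO MCAo (5.97 ± 4.10 CPM), Cxcl12 is low in both MCAo groups (1745 ± 360 and 1678 ± 406 CPM) and Ackr3 is low in both YT-iKO groups (29.9 ± 12.2 and 24.5 ± 10.02 CPM).

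The myeloid attractants had higher mean levels after MCAo in both genotypes, but none passed the edgeR test. limma-voom called Cxcl1 (0.65, adjusted p = 0.0999) and Ccl7 (1.54, adjusted p = 0.0381) in CTRL and Ccl7 (1.45, adjusted p = 0.0777) in YT-iKO. It called 24.2% of all genes in CTRL and 18.1% in YT-iKO there. Cxcl1 counts were 37, 32, 37 and 37 after sham and 128, 49, 65 and 38 after MCAo in CTRL, against 63, 41, 46 and 38 after sham and 258, 34, 55 and 91 after MCAo in YT-iKO. In each genotype replicate 1 was the highest after MCAo, and on the CPM scale the sham and MCAo groups overlapped. The log2 difference after MCAo was 1.01 (SE 0.45) in CTRL and 1.17 (SE 0.45) in YT-iKO, neither of which passed (edgeR adjusted p = 1). Without replicate 1 of the MCAo group they were 0.58 and 0.40. The genotype differences were 0.20 (SE 0.46) after sham and 0.36 (SE 0.44) after MCAo.

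Ccl2 counts were 1, 15, 10 and 11 after sham and 20, 9, 14 and 17 after MCAo in CTRL, against 4, 8, 10 and 7 after sham and 31, 17, 11 and 28 after MCAo in YT-iKO. In YT-iKO every MCAo library lay above every sham library, by a small margin at the nearest pair. The difference was 1.54 (SE 0.60, 2.90-fold), with an exact permutation p of 0.0286 and an edgeR adjusted p of 1, against 0.73 (SE 0.59) in CTRL, and the difference between these responses was 0.81 (SE 0.84). Ccl7 had 3 to 28 counts in all libraries, its groups overlapped in every comparison, and in YT-iKO MCAo its counts were 6, 28, 18 and 3, highest where the background was highest. Counts of this size give little precision: an interval of 2 SE around the Ccl7 response to MCAo in CTRL (1.23) ran from −0.25 to 2.7.

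The pair of membrane-bound chemokines differed in level and in pattern. Cx3cl1, which tethers CX3CR1-bearing microglia and monocytes, had 1547, 1966, 1769 and 2000 counts after sham and 1431, 984, 923 and 1375 after MCAo in CTRL, against 2157, 1000, 827 and 1283 after sham and 1531, 898, 722 and 1344 after MCAo in YT-iKO. CTRL sham was the highest group by its mean, at 120 ± 17.5 CPM (SD, n = 4), and the other groups were at 78.9 ± 16.8, 74.6 ± 24.1 and 65.9 ± 17.3 CPM, although single libraries overlapped. Cx3cl1 was 0.68 lower on the log2 scale in YT-iKO after sham (SE 0.25, edgeR adjusted p = 0.99) and 0.60 lower after MCAo in CTRL (SE 0.25, edgeR adjusted p = 1). Its other differences were −0.26 (SE 0.25) for genotype after MCAo and −0.18 (SE 0.25) for MCAo in YT-iKO. The exact permutation p was 0.0571 for each of the first 2. With the background taken off and libraries scaled on genes of at least 10 CPM, the groups did not overlap for MCAo in CTRL or for genotype after MCAo (77.4 ± 0.831 in CTRL against 64.5 ± 7.73 CPM in YT-iKO, SD, n = 4), each with an exact permutation p of 0.0286. Cxcl16, whose product binds CXCR6, had 27 to 77 counts, and its log2 differences in edgeR lay between −0.16 and 0.41 in the 4 comparisons with overlapping groups in all. In limma-voom it was at 0.56 for MCAo in CTRL, which was called (adjusted p = 0.0888), and at −0.64 for genotype after MCAo (adjusted p = 0.308). Cx3cl1 was called by limma-voom after MCAo in both genotypes (−0.77, adjusted p = 0.0037, in CTRL and −0.62, adjusted p = 0.0598, in YT-iKO). For MCAo, limma-voom called 24.2% of all genes in CTRL and 18.1% in YT-iKO. Zmynd15, which shares 552 bases of exon with Cxcl16 on the opposite strand, had 21 to 96 counts itself.

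Cxcl12, the dominant chemokine transcript of these cells, had lower mean levels after MCAo. Its counts were 50563, 50594, 38967 and 49058 after sham and 32886, 22157, 22060 and 26816 after MCAo in CTRL, against 76982, 47308, 28275 and 40964 after sham and 33195, 18098, 27980 and 33744 after MCAo in YT-iKO. In CTRL all 4 MCAo libraries were below all 4 sham libraries, from 3082 ± 158 to 1745 ± 360 CPM (SD, n = 4), while in YT-iKO the groups, at 2725 ± 769 and 1678 ± 406 CPM, overlapped at YT-iKO sham replicate 3. The log2 difference was −0.82 in CTRL (SE 0.28, 0.566-fold, edgeR adjusted p = 0.764, exact permutation p = 0.0286) and −0.70 in YT-iKO (SE 0.28, edgeR adjusted p = 1, exact permutation p = 0.0571), and the responses differed by 0.12 (SE 0.39). DESeq2 called the gene in CTRL (−0.81, adjusted p = 0.039) and not in YT-iKO (−0.72, adjusted p = 0.107), while limma-voom (−0.97, adjusted p = 7.85e-05, and −0.81, adjusted p = 0.0136) and edgeR with TMM factors from genes of at least 10 CPM (−0.73, adjusted p = 0.0142, and −0.72, adjusted p = 0.0153) called it in both. With the background taken off and that scaling, the YT-iKO groups did not overlap either (exact permutation p = 0.0286). For MCAo in CTRL and YT-iKO, DESeq2 called 1.11% and 1.25% of genes with an adjusted p, and limma-voom 24.2% and 18.1% of all genes. The genotype differences were −0.18 (SE 0.28) after sham and −0.06 (SE 0.28) after MCAo, with intervals of 2 SE from −0.73 to 0.38 and from −0.61 to 0.50.

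Some markers of vessel type were also higher after MCAo. The 8 venous markers, among them Vwf and Ackr1 but also Icam1, Vcam1 and Lcn2, which inflammation induces, summed to 1594 to 1983 CPM after sham and 3398 to 8101 after MCAo in CTRL, and to 1082 to 1473 after sham and 2458 to 7823 after MCAo in YT-iKO, without overlap between sham and MCAo in either genotype. Most of this sum was Vwf, with means of 1207 and 4776 CPM after sham and MCAo in CTRL and 789 and 4013 CPM in YT-iKO. Of the 8, edgeR called Ackr1 and Vwf higher in CTRL, and Ackr1, Vwf and Lcn2 in YT-iKO, and for genotype after sham it called Slc38a5 lower in YT-iKO. The 8 arterial markers summed to 437 to 498, 252 to 527, 354 to 588 and 406 to 875 CPM in the same order, with overlap. Of these, edgeR called 1, Gja4, which was higher after MCAo in YT-iKO. For MCAo in CTRL, their median log2 difference was −0.371 (all genes 0.07), with 3 of 8 above 0. There 2 of 8 were under an unadjusted edgeR p of 0.05 (3.50% of all genes), and limma-voom called 0 higher and 6 lower (24.2%). For MCAo in YT-iKO the median was 0.487 (all genes −0.02), with 5 of 8 above 0. There 4 of 8 were under that p (3.01% of all genes), and limma-voom called 1 higher and 2 lower (18.1%). For genotype after MCAo, 7 of the 8 were above 0 (median log2 difference 0.445, all genes 0.03). Of the 8, 3 were under an unadjusted edgeR p of 0.05, against 1.49% of all genes. limma-voom called 2 of them higher in YT-iKO, and 0.827% of all genes. For the difference between the responses, 8 of 8 were above 0 (median 0.549, all genes −0.02) and 2 of 8 were under that p, against 0.373% of all genes, with 0 called by edgeR, DESeq2 or limma-voom. None of these 16 markers was at 0 in a library, and the part of vessel type in the levels of Cxcl12, Cxcl10 or any other member was not tested.

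Ackr3, which scavenges CXCL12, had lower mean levels in YT-iKO bECs with and without stroke. Its counts were 877, 1049, 893 and 792 after sham and 730, 525, 532 and 790 after MCAo in CTRL, against 997, 415, 375 and 360 after sham and 636, 186, 330 and 529 after MCAo in YT-iKO. On the CPM scale every YT-iKO library was below every CTRL library of the same surgery, with YT-iKO sham replicate 1 (48.1 CPM) close to the lowest CTRL sham library (51.5 CPM) and far from the other 3 of its group (23.3 to 24.3 CPM). The log2 difference was −0.98 after sham (SE 0.28, 0.505-fold) and −0.82 after MCAo (SE 0.28, 0.568-fold), each with an exact permutation p of 0.0286. Neither passed in edgeR (adjusted p = 0.945 and 1), but without YT-iKO sham replicate 1 the sham difference was −1.30 with an edgeR adjusted p of 0.0699. limma-voom called both (−1.03, adjusted p = 0.00935, and −0.99, adjusted p = 0.0162), and DESeq2 neither (adjusted p = 0.137 and 0.431). For genotype, limma-voom called 0.46% of all genes after sham and 0.827% after MCAo. After MCAo, Ackr3 was also lower than after sham in CTRL (−0.46, SE 0.28, exact permutation p = 0.0286, edgeR adjusted p = 1), whereas the YT-iKO groups overlapped (−0.29, SE 0.28). limma-voom called the gene lower after MCAo in CTRL (−0.65, adjusted p = 0.0275) and in YT-iKO (−0.61, adjusted p = 0.0858). There it called 24.2% of all genes in CTRL and 18.1% in YT-iKO. The endothelial markers summed to 20790 to 22450 CPM in CTRL sham and 12460 to 21430 CPM in YT-iKO sham. For genotype after sham, 1 of these 14 was above 0 (median log2 difference −0.26, all genes 0.11). An unadjusted edgeR p under 0.05 was found for 1 (2.16% of all genes), and limma-voom called 1 lower (0.46%). For genotype after MCAo, 3 of 14 were above 0 (median −0.124, all genes 0.03), with 1 under that p (1.49%) and 1 called lower by limma-voom (0.827%). The 8 astrocyte markers summed to 113.6 to 124.5 CPM in CTRL sham and 68.6 to 91.8 CPM in YT-iKO sham, without overlap. Their median log2 difference was −0.169 (all genes 0.11), with 3 of 8 above 0. Of the 8, 3 were under an unadjusted edgeR p of 0.05 (2.16% of all genes), and limma-voom called 1 lower (0.46%). After MCAo they summed to 102 to 123 CPM in CTRL and 79.5 to 119 CPM in YT-iKO, with overlap. The part of either marker list in the differences of Ackr3 or Cx3cl1 was not tested.

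In the rest of the chemokine system, edgeR called few genes. Of 25 other ligand genes tested, none was called by edgeR in any comparison. For genotype, 0 were under an unadjusted p of 0.05 after sham (2.16% of all genes) and 1 after MCAo (1.49%). For MCAo, 2 were under that p in CTRL (3.50%) and 2 in YT-iKO (3.01%). DESeq2 called 1 of them, in YT-iKO after MCAo, and limma-voom 4 higher and 1 lower in CTRL and 3 higher and 1 lower in YT-iKO after MCAo, where it called 24.2% and 18.1% of all genes. The most abundant were Ccl25 at 17.0, Ccl27a at 5.24 and Cxcl17 at 1.87 CPM, with Ccl27a at −0.52 (SE 0.25) after MCAo in CTRL and −0.66 (SE 0.25) in YT-iKO, neither passing. Of 22 other receptor genes, edgeR and DESeq2 called 1, which in edgeR was Ackr1, in each genotype after MCAo. There limma-voom called 2 higher and 2 lower in CTRL (24.2% of all genes called) and 4 higher in YT-iKO (18.1%). Ackr1, a receptor of venular endothelium that binds and displays many chemokines, rose by 3.8 (SE 0.55, edgeR adjusted p = 0.00166) in CTRL and 3.77 (SE 0.54, edgeR adjusted p = 0.00161) in YT-iKO, from 2.47 ± 0.569 to 34.5 ± 23.6 CPM and from 2.83 ± 1.02 to 39.1 ± 29.6 CPM (SD, n = 4). The next receptors by level, Ccrl2 at 16.1 and Cxcr6 at 10.3 CPM, were not called by edgeR. Among 5 chemokine-cutting proteases, Dpp4, which trims CXCL10 and CXCL12, fell by 0.87 after MCAo in YT-iKO (SE 0.20, edgeR adjusted p = 0.0871) and was at −0.56 in CTRL (SE 0.20, edgeR adjusted p = 0.857), and Adam10 (303 CPM) and Adam17 (85.3 CPM) were not called by edgeR.

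No gene of the interferon-stimulated list, which does not include Cxcl10, was called by edgeR. Of 17 genes for interferon sensing and signalling, Sting1, an adaptor that answers cytosolic DNA, was the only one edgeR called, and it rose in both genotypes after MCAo. Its counts were 58 to 97 in the 8 sham libraries and 152 to 561 in the 8 MCAo libraries, a difference of 2.36 (SE 0.33, edgeR adjusted p = 0.00126) in CTRL and 2.16 (SE 0.33, edgeR adjusted p = 0.00295) in YT-iKO. Between genotypes after MCAo it was at −0.29 (SE 0.31, adjusted p = 1), while Ifnar1 (518 CPM), Jak1 (160 CPM) and Stat2 (152 CPM), the most abundant of the list, were not called by edgeR in any comparison. limma-voom called 2 of the 17 higher and 6 lower after MCAo in CTRL (24.2% of all genes called). It called 1 higher and 2 lower in YT-iKO (18.1%), and 1 lower for genotype after MCAo (0.827%). Of 20 interferon-stimulated genes, edgeR and DESeq2 called none in any comparison. Under an unadjusted edgeR p of 0.05 were 1 after MCAo in CTRL (3.50% of all genes) and 3 in YT-iKO (3.01%). For genotype, 2 were under that p after sham (2.16%) and 1 after MCAo (1.49%). limma-voom called 2 lower in CTRL (24.2% of all genes called) and 3 higher in YT-iKO (18.1%) after MCAo. For genotype it called none after sham (0.46%) and 2 higher after MCAo (0.827%). Their median log2 difference after MCAo was 0.03 in CTRL and 0.175 in YT-iKO, with all genes at 0.07 and −0.02, and the highest single value in YT-iKO was 0.92, less than that of Cxcl10. Gbp3 (229 CPM), Gbp4 (211 CPM) and Oasl2 (198 CPM) were the most abundant.

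Of 14 NF-kappaB subunits, inhibitors and upstream receptors, edgeR called only Tnfrsf1a, a receptor for tumor necrosis factor. It rose after MCAo in YT-iKO by 1.42 (SE 0.33, edgeR adjusted p = 0.0876), with 1.08 (SE 0.32, edgeR adjusted p = 0.466) in CTRL. The list's median was 0.445 in YT-iKO and 0.29 in CTRL, and 7 and 4 of its genes were under an unadjusted p of 0.05 there, against 3.01% and 3.50% of all genes. Nfkbia (252 CPM), Nfkb1 (167 CPM) and Il1r1 (152 CPM) were its most abundant genes and were not called by edgeR. DESeq2 called 1 of the list higher in CTRL and 2 higher in YT-iKO after MCAo, and limma-voom 3 higher and 1 lower in CTRL and 1 higher in YT-iKO, where it called 24.2% and 18.1% of all genes. The comparisons for MCAo in CTRL and genotype after MCAo share the CTRL MCAo libraries, and these lists were chosen with earlier results known.

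**Figure D5:**
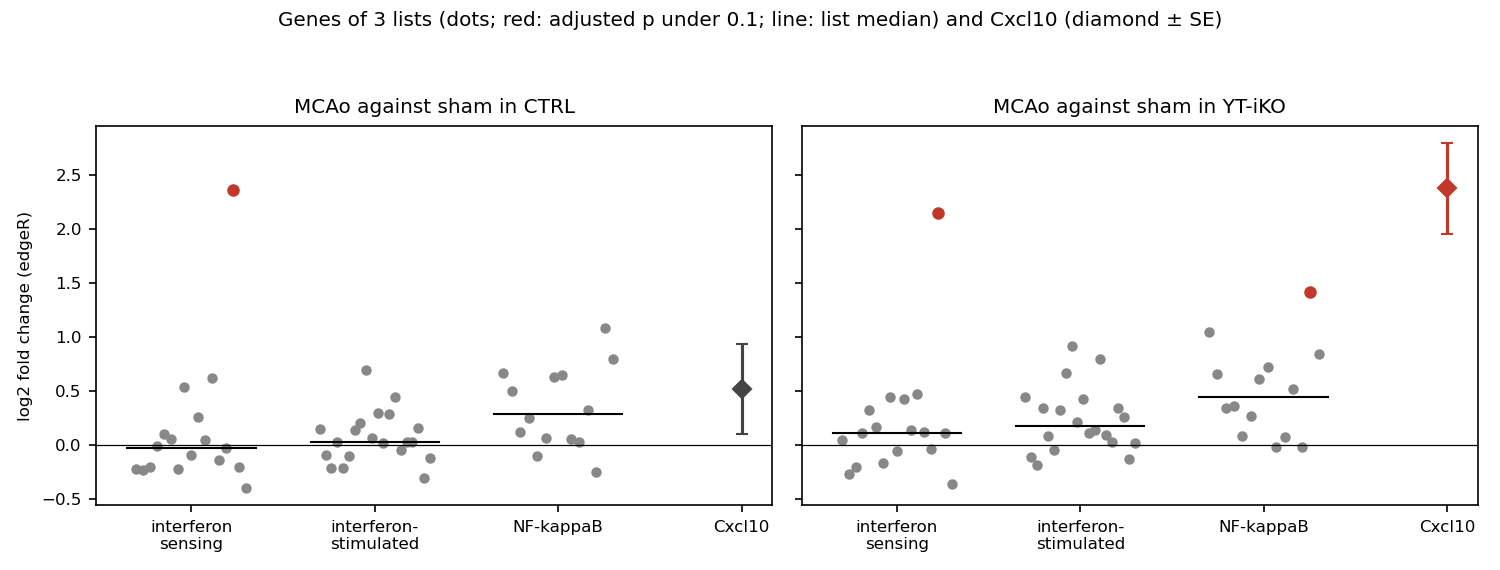
Log2 fold changes for MCAo against sham in CTRL (left) and YT-iKO (right) of the genes of 3 lists (dots, red where the edgeR adjusted p was under 0.1, line at the list median) and of Cxcl10 (diamond with SE). In YT-iKO, Cxcl10 (2.38) lies above every gene of the interferon-stimulated list, and Sting1 is the red dot of the first list in both panels.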

How the data were processed

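Sorted mouse bECs were sequenced in 16 libraries (SMART-Seq Ultra Low Input kit, paired ends). The authors mapped reads with STAR 2.7.8a to GRCm38 with GENCODE annotation and deposited raw counts per gene, without normalization. The counting program, its strand setting and its filter on genes are not given in the sources used here, so how reads in overlaps with antisense genes were assigned is not known. Positions and exon lengths came from GENCODE on GRCm38.

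Counts were tested with edgeR 4.0.16 (R 4.3.3; filterByExpr, TMM, quasi-likelihood, 1 mean per group over all 16 libraries, Benjamini-Hochberg over 31085 genes, threshold 0.1), and single CPM values by exact permutation over 70 assignments. Fits were tested on simulated data. Alternatives were DESeq2 1.42.0, limma-voom (limma 3.58.1), other scaling factors, other filters, models of 2 groups, a replicate block and leaving out each library. The even background is the mean receptor-gene count per kilobase times a gene's exon length. Libraries are pools of mice and p-values measure their spread. Deviations from the group mean correlated above 0.1 in 17 of 24 pairs of libraries with equal replicate numbers (median r 0.259). A factor shared by libraries of equal number is therefore possible. The main model and the permutation tests have no term for it, and the replicate block was fitted as an alternative.

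Members and gene lists were chosen with earlier results of these data known. Genes named besides the members were Yap1, Wwtr1, those edgeR called in the 6 lists of ligands, receptors, proteases, interferon and NF-kappaB genes, the 3 most abundant of each, the 3 most correlated with a called member, and markers needed to state levels. Genes with overlapping exons and the marker genes called by edgeR were named after their values were seen. Intervals of 2 SE are approximate.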

Additional observations from a re-analysis of the deposited data

Results flagged for a closer look

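Of 40 groups of 4 libraries (10 genes in 4 groups), 3 held a library far from the other 3 by Dixon's test at the 95% level, where chance gives about 1 in 20. Ackr3 in YT-iKO sham replicate 1, at 48.1 CPM, was the highest of its group (ratio 0.96), and the genotype difference after sham is larger without it (−1.30 against −0.98 on the log2 scale). Cxcl10 in CTRL sham replicate 1, at 0.894 CPM or 14 counts, was the lowest of its group (ratio 0.86). Cxcl9 in CTRL MCAo replicate 1, at 0.759 CPM or 11 counts, was the lowest of its group (ratio 0.861), and this library had the least even background of the CTRL MCAo group.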

How the results depend on the processing

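The number of the 10 genes called depended on the setting. For genotype after sham it was 0 of 10, and 1 (Ackr3) with TMM factors from genes of at least 10 CPM (0.392% of all genes called), with only the 2 groups in the model (0.506%) or with limma-voom (0.46%), and 0 to 1 with a library left out. For genotype after MCAo it was 0, and 1 with DESeq2 (Cxcl10, 0.461% of the genes with an adjusted p, as for its value after MCAo in CTRL), 1 with the abundant-gene TMM factors (Ackr3, 0.582%), 2 with limma-voom (0.827%), and 0 to 1 with a library left out, the 1 being Cxcl10 without YT-iKO MCAo replicate 4. For MCAo in CTRL it was 0, and 1 with DESeq2 (1.11%) or the abundant-gene factors (1.83%), both Cxcl12, 2 with the 2 groups alone (2.52%) and 7 with limma-voom (24.2%), and 0 to 0 with a library left out. For MCAo in YT-iKO it was 1, and 2 with the abundant-gene factors (Cxcl10 and Cxcl12, 1.74%), 0 with the 2 groups alone (0.0624%), 7 with limma-voom (18.1%), and 0 to 1 with a library left out, the 0 without YT-iKO sham replicate 2. For the difference of responses it was 0 in all. RLE factors, no filter and a filter of 1 CPM moved no count. A block for the replicate number left the counts at 0, 0, 0, 1 and 0 (Cxcl10 in YT-iKO 2.27, edgeR adjusted p = 0.011), so that it changed no call. With the block, Ackr3 for genotype after sham was at −1.065 (edgeR adjusted p = 0.148, against 0.945 without it). The abundant-gene factors moved the median of all genes from 0.11 to 0.30 after sham and from 0.07 to 0.21 for MCAo in CTRL. No called value changed sign, and 41 values called under neither setting did, of which those with a library left out are given here as ranges of the log2 difference. With a library left out, the genotype difference after sham ran from −0.061 to 0.26 for Cxcl9 and −0.042 to 0.26 for Cxcl16. That after MCAo ran from −0.055 to 0.50 for Cxcl9, −0.40 to 0.75 for Cxcl1, −0.30 to 0.70 for Ccl7 and −0.19 to 0.065 for Cxcl12. The MCAo response in YT-iKO ran from −0.12 to 0.26 for Cxcl16 and −0.038 to 1.08 for Ccl7. The difference of responses ran from −0.17 to 0.39 for Cxcl9, −0.56 to 0.21 for Cxcl11, −0.61 to 0.55 for Cxcl1, −0.062 to 0.24 for Cxcl12 and −0.084 to 0.42 for Ackr3. With the abundant-gene factors, Cxcl10 was at 0.009 for genotype after sham, Cxcl16 at −0.042 for MCAo in YT-iKO, and Cxcl1 and Ackr3 at −0.073 and −0.015 for the difference of responses. With limma-voom, Cxcl1 and Cxcl12 were at −0.081 and 0.056 for genotype after MCAo, Cxcl16 at −0.10 for MCAo in YT-iKO, and Cxcl11 and Cxcl1 at 0.53 and −0.28 for the difference of responses. For MCAo in YT-iKO, Cxcl16 was at −0.005 with the 2 groups alone and at −0.036 with the background taken off. Measured on vomeronasal and taste receptor genes alone, the background was lower and counts over it were 5.59-fold for Cxcl9, 12.2 for Cxcl10, 5.02 for Cxcl11, 23.5 for Cxcl1, 7.87 for Ccl2, 7.82 for Ccl7, 233 for Cx3cl1, 11.6 for Cxcl16, 3080 for Cxcl12 and 126 for Ackr3. The cause of these shifts was not tested. The alternatives that take the background off were chosen after the data were seen. Depth limits Ccl2, Ccl7, Cxcl9, Cxcl11, Cxcl1 and Cxcl10, most of whose counts were under 50 per library.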
